A study of Mus musculus with 4 samples.

Results

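The kinesin motor genes of the mouse were followed on 4 Affymetrix Mouse Gene 1.1 ST arrays of whole testis from adult males. The family was taken as a list of 40 Kif genes, chosen by name with earlier results of these data known. Of them, 37 had an array value of their own among 18820 genes with a value. KO mice were of a C57BL/6 mixed background and carried a β-Geo cassette within both copies of Azin2, the gene of antizyme inhibitor 2, whereas WT mice had intact Azin2. The truncated gene, fused to lacZ, remained under the Azin2 promoter, and the study also calls these mice hypomorphic. Each genotype had 2 arrays, hybridised with RNA from a pool of 3 testes apiece. The labels do not say which animals entered each pool, so that p-values measure the spread between these pools only.

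Kinesins are motor proteins that hydrolyse ATP to walk along microtubules or to take their ends apart. Some act on spindles, where they separate poles, align chromosomes and complete cell division. Others haul vesicles, mitochondria and mRNA through the cytoplasm, and a further group works in cilia and flagella, where intraflagellar transport builds the axoneme. Testis uses all of these, since spermatogonia divide by mitosis, spermatocytes by meiosis, and spermatids form a manchette of microtubules and a sperm tail. The members were therefore grouped into 14 spindle kinesins, 14 transport kinesins, 9 kinesins of cilia and flagella, and 3 others (Kif12, Kif26a and Kif26b).

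To show the DNA around the start of transcription, the 250 bases before a RefSeq transcript start (GRCm38.p6) are given for the genes with the strongest array signals (Kif9 and Kif2b), for a spindle motor (Kif11), for a spermatid motor (Kif17) and for the member with the smallest p-value between genotypes (Kif1a). RefSeq windows were at hand for 32 of the 40 members. Kif9 and Kif1a had 2 windows each, for different starts, and the first listed was used, as for every gene. These transcripts start inside the RefSeq gene, so that 220 of the 250 bases shown for Kif9 and 165 of those for Kif1a lie within the gene's outer bounds. Capitals mark matches, on either strand, to the CCAAT box (CCAAT), to the cell cycle homology region CHR (TTTGAA), to the full cAMP response element CRE (TGACGTCA) and to the first bases of the X-box of ciliary genes (GTTGCC), and no matches overlapped in these windows.
Kif9, chr9:110476708-110476957, plus strand: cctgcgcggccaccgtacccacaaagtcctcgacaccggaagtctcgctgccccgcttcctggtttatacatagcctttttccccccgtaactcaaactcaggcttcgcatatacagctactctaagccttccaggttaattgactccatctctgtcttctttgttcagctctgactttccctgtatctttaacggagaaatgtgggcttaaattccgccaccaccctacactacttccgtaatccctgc
Kif2b, chr11:91577556-91577805, minus strand: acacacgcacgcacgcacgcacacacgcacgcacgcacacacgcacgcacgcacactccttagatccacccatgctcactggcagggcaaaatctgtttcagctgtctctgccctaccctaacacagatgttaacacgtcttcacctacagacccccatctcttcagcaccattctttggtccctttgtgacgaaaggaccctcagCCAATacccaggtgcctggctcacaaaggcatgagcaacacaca
Kif11, chr19:37376132-37376381, plus strand: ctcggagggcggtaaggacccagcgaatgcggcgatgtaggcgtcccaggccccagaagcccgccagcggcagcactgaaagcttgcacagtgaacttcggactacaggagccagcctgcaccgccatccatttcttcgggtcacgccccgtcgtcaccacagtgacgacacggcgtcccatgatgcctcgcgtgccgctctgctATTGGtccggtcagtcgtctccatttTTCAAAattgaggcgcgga
Kif17, chr4:138262001-138262250, plus strand: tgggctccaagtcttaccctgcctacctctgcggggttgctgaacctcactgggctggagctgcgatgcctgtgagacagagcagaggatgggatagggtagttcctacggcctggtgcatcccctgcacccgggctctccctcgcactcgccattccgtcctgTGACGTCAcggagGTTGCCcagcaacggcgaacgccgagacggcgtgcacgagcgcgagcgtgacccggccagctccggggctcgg
Kif1a, chr1:93101875-93102124, minus strand: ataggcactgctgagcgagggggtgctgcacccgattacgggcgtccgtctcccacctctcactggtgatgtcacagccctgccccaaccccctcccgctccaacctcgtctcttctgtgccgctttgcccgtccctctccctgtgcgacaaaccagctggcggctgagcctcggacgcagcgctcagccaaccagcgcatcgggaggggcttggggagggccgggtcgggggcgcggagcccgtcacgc

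The Kif11 window held a CCAAT box with its first base 45 bases before the start and a CHR match 19 bases before it. The Kif17 window held a CRE 86 bases before the start and the X-box letters 73 bases before it, and Kif2b had a CCAAT box at 44 bases. The windows shown for Kif9 and Kif1a, which lie mostly within the gene, held none of these letters, and their other windows were not searched. Among spindle kinesins, 8 of 13 windows had a CCAAT box (61.5%) and 5 of 13 a CHR match (38.5%), as compared with 34.5% and 16.3% of the 27025 gene windows in the table. Among transport kinesins these numbers were 1 of 8 for the CCAAT box, in Kif1b, and 0 of 8 for CHR. Of 8 windows of ciliary kinesins, 5 had a CCAAT box, and 3, of Kif3a, Kif17 and Kif24, had the X-box letters. These also stood in 2 of 8 transport windows (Kif16b and Kif3c) and in 2 of 13 spindle windows (Kif18a and Kif23), and occurred in 10.5% of all windows. A full CRE occurred in 1.62% of all windows and in Kif17 and Kif5c among the members. Windows also differed in base composition, with a median GC content of 69.8% for transport, 62.0% for spindle and 59.2% for ciliary kinesins. It was 52.0% over all windows, and the motif shares were not adjusted for it. A match of letters is a description of the window and shows no binding.

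The values are normalized log2 signals, so that a difference of 1 is a doubling of signal. Array medians lay between 6.08 and 6.11 over all probe sets. Named probe sets had a median WT signal of 7.10, and genes are called above the median by this value. Azin2 itself was at 7.36 and 7.14 in the KO arrays and at 10.16 and 9.998 in the WT arrays, as the labels require (log2 difference -2.83, standard error 0.10, adjusted p = 0.0250 from limma). Spermatid markers such as Prm1 and Acrv1 were bright, and all 12 of them and all 9 spermatocyte markers lay above the median of named probe sets. Of 3 neuronal markers with a value, the synaptic genes Snap25 and Syp were dim, at 4.80 and 4.90 in WT testes, and Map2 was at 9.73.

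The order of signals across genes is a description of array brightness. Probes differ in how well they bind, so that it is not an order of mRNA amounts, and none of it was tested. The strongest WT signals of the family came from Kif9 and from the Kif2 genes. Kif9, a motor of the sperm axoneme, was at 11.31 and 11.28 in WT and at 11.25 and 11.25 in KO arrays. Kif2b, Kif2a and Kif2c encode kinesins that do not walk but depolymerize microtubule ends. In WT arrays Kif2b was at 11.28 and 11.27, Kif2a at 11.18 and 11.28, and Kif2c at 11.17 and 11.16. In KO arrays they were at 11.26 and 11.24, 11.25 and 11.23, and 11.16 and 11.15. These 4 genes lay above 95.8% or more of the named probe sets, and the gaps between neighbours in this order were smaller than the pooled SD between WT arrays, 0.09. A gap of 0.64 separated them from the next gene.

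**Figure D1:**
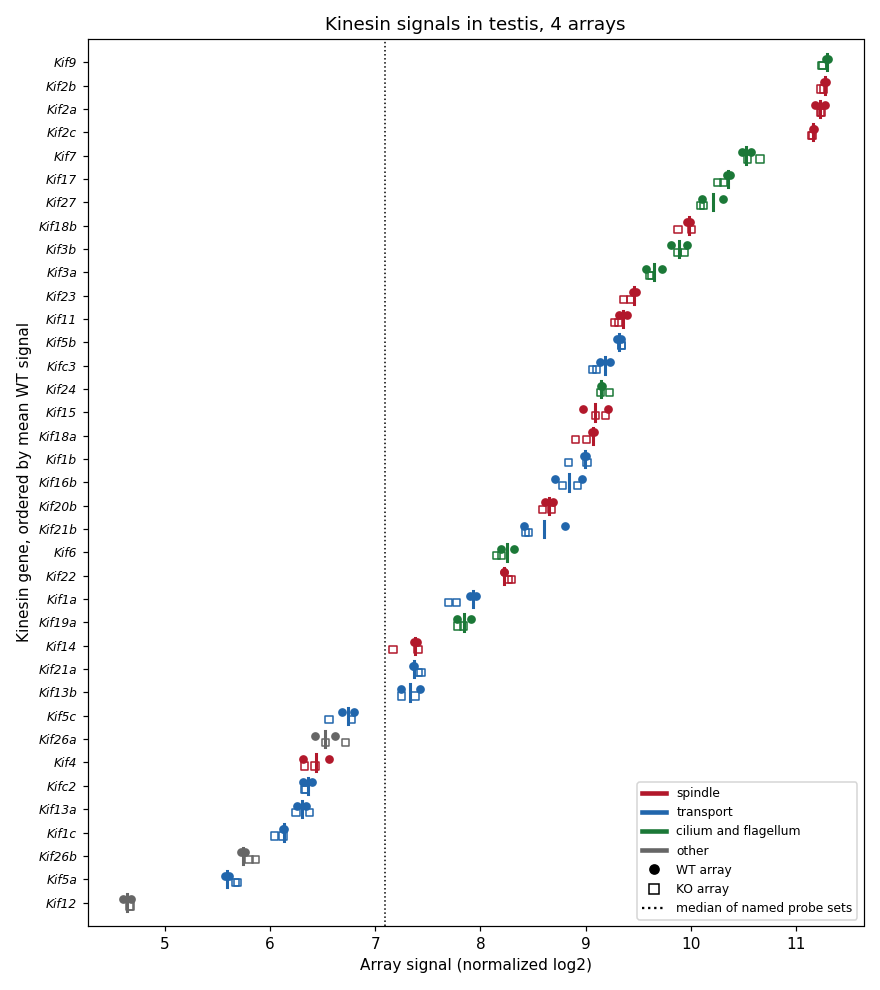
Normalized log2 array signal (horizontal axis) of the 37 kinesin genes with a value of their own, ordered by mean WT signal (vertical axis); filled circles are WT arrays, open squares KO arrays, vertical bars WT means, colours the groups, and the dotted line the median of named probe sets. Kif9 and the Kif2 genes stand at the top between 11.15 and 11.31, Kif12 at the bottom near 4.64, and KO and WT points of each gene lie close together.

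All 9 kinesins of cilia and flagella lay above the median of named probe sets, with a median WT signal of 9.89. After Kif9 and Kif7, whose probe sets are treated below, came Kif17 at 10.36 ± 0.02 (SD, n = 2 pools). Kif17 is known in spermatids for moving the CREM coactivator ACT, the product of Fhl5, out of the nucleus. Fhl5 and Crem were themselves bright, at 11.25 and 10.74 in WT testes. Kif27, a relative of Kif7 needed for motile cilia, was at 10.21 ± 0.14. Kif3b and Kif3a, the motor subunits of anterograde intraflagellar transport, were at 9.89 ± 0.11 and 9.65 ± 0.11, and Kifap3, which joins them to cargo, was at 10.67. Kif24, which acts at centrioles before a cilium forms, was at 9.15 ± 0.0061. Kif6 was at 8.26 ± 0.08 and Kif19a, which limits the length of cilia, at 7.84 ± 0.10.

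Of the 12 spindle kinesins with a value, 11 lay above the median and the group had a median WT signal of 9.22. Kif18b, which acts with Kif2c on astral microtubules, was at 9.98 ± 0.02 in WT testes. Kif23, the motor of the central spindle, was at 9.46 ± 0.02 and its partner Racgap1 at 9.69. Kif11, which slides the spindle poles apart, was at 9.36 ± 0.05, and Kif15, which can share that task, at 9.09 ± 0.17. Kif18a, the motor that aligns chromosomes, was at 9.07 ± 0.01. Kif20b was at 8.65 ± 0.06 and Kif22, a motor on chromosome arms, at 8.22 ± 0.0016. The dimmest were Kif14, needed for cytokinesis, at 7.38 ± 0.01 and the chromokinesin Kif4 at 6.44 ± 0.17. Markers of dividing cells such as Top2a and Ccnb2 were bright as well, and all 5 with a value lay above the median.

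Transport kinesins were dimmer, with a median WT signal of 7.37, and 8 of 13 lay above the median of named probe sets. The difference of medians from the spindle group was 1.86 on the log2 scale, and that from the ciliary group 2.52. Both are brightness of different probes and have no test. Ubiquitous Kif5b, the heavy chain of conventional kinesin, led at 9.32 ± 0.02, followed by Kifc3 at 9.18 ± 0.07, Kif1b at 8.996 ± 0.01, the endosome motor Kif16b at 8.84 ± 0.18 and Kif21b at 8.61 ± 0.28. The neuronal heavy chains Kif5c and Kif5a were far below Kif5b in brightness, at 6.74 ± 0.08 and 5.59 ± 0.02. Kif1a, the motor of synaptic vesicle precursors, was at 7.93 ± 0.04. The rest were Kif21a at 7.37, Kif13b at 7.33, Kifc2 at 6.36, Kif13a at 6.30 and Kif1c at 6.13. Among the others, Kif26a and Kif26b, which lack motor activity, were at 6.52 ± 0.13 and 5.74 ± 0.03. Kif12 was the dimmest of all, at 4.68 and 4.60 in WT and 4.67 and 4.67 in KO arrays, above only 13.1% of named probe sets.

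Some of these signals depend on which probe set stands for the gene. The 40 members had 50 probe sets, 44 with a single symbol, and 6 genes had several of their own. The numbers of the probe sets run along chromosomes, and each strand has its own run. Over 14728 genes with a known strand, 96.9% had the probe set that stood for them numbered among genes of their own chromosome and strand. Of the members with a gene value, this could be read for 30, and it held for 29. It could not be read for Kif5b, Kifc3, Kif21b, Kif19a, Kif13b, Kifc2 and Kif5a. The 3 probe sets of Kif7, a regulator of Hedgehog signalling in the primary cilium, had WT signals of 10.53, 7.97 and 6.06. The brightest was at 10.57 and 10.48 in WT and at 10.54 and 10.66 in KO arrays, with overlap. It was numbered among genes of chromosome 7 on the plus strand (31 of 34 neighbours), next to Ticrr. Kif7 lies on the minus strand, and its end overlaps that of Ticrr in RefSeq by 51 bases. The gene value of Ticrr was 8.03 and 7.92 in WT arrays, and which transcript the brightest Kif7 probe set reads was not tested. The other 2 probe sets of Kif7 were numbered on its own strand. The brighter of these was at 8.05 and 7.90 in WT and at 8.06 and 8.07 in KO arrays. With it in place of the brightest, a choice made after the data were seen, the median of the ciliary group was 2.28 above that of the transport group.

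**Figure D2:**
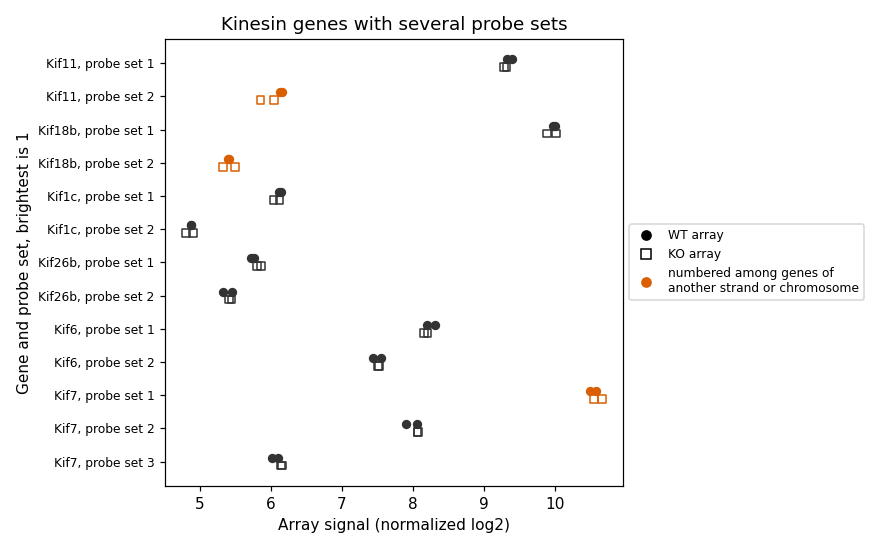
Normalized log2 array signal (horizontal axis) of each probe set of the 6 kinesin genes with several (vertical axis, brightest first); filled circles are WT and open squares KO arrays. Orange marks the 3 probe sets numbered among genes of another strand or chromosome, which include the brightest of Kif7 at 10.53 in WT testes.

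Likewise, the dimmer probe set of Kif18b, at 5.40 in WT testes against 9.98, was numbered on the other strand. The dimmer one of Kif11, at 6.14 against 9.36, was numbered on chromosome 6 instead of 19. The probe sets of Kif6 (8.26 and 7.49), Kif26b (5.74 and 5.39) and Kif1c (6.13 and 4.88) were numbered among genes of their own chromosome and strand. No gene value could be given for 3 members, whose probe sets carry several symbols. Kif20a, a motor of cytokinesis, shares both of its probe sets with Cdc23, at 10.44 and 8.53 in WT testes. Those of Kif3c are shared with 1110002L01Rik (8.17 and 5.26). The probe set of Kifc1, a minus-end motor of spindles and of the forming sperm head, is shared with Kifc5b (6.24) and is numbered among genes of chromosome 10 (19 of 24 neighbours), whereas Kifc1 lies on 17. For the brighter probe set of Kif3c the largest group of neighbours, 16 of 34, was on the other strand of its chromosome. The 6 shared probe sets include one of Kif4 with Pdzd11. None of the 6 had an unadjusted p under 0.05 between genotypes from limma, beside 4.10% of all named probe sets.

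KO and WT testes were compared next, since the study asked what the loss of AZIN2 changes in testis and sperm. In whole testis, fewer cells of a type and less RNA per cell cannot be told apart. No kinesin gene passed an adjusted p of 0.05 from limma (0 of 37, with an adjusted p of 0.9995 for each), and among the 23099 named probe sets the share that did was 0.00433%, from Azin2 alone. None had both a fold of 1.5 and an unadjusted p under 0.05 from limma, as 0.0823% of named probe sets had. At an unadjusted p under 0.05 from limma there was 1 member, Kif1a, that is 2.70% of the members beside 4.10% of all named probe sets. The same 1 member was lower in KO, where 1.96% of all were called.

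Kif1a was at 7.70 and 7.77 in KO and at 7.90 and 7.96 in WT arrays. The KO arrays were the lower ones without overlap, at a log2 difference of -0.19 (standard error 0.06, 95% confidence interval -0.34 to -0.05), or 0.874 of the WT signal. The unadjusted p was 0.0173 and the adjusted p 0.9995 from limma. By limma the unadjusted p was 0.0869 without KO replicate 1 and 0.0835 without WT replicate 2. The ordinary equal-variance test, which shares no spread between probe sets, gave an unadjusted p of 0.0511.

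The next largest differences below 0 were those of Kif21b and Kif18a. Kif21b, which slows microtubule growth in neurons and lymphocytes, was at 8.43 and 8.45 in KO and at 8.41 and 8.80 in WT arrays (log2 difference -0.17, 95% confidence interval -0.51 to 0.18). Its groups overlapped, and WT replicate 2 stood above the other arrays. Without that array the difference was 0.03, and without WT replicate 1 it was -0.36 with an unadjusted p of 0.00516 from limma. Kif18a was at 9.01 and 8.91 in KO and at 9.06 and 9.08 in WT arrays, without overlap (log2 difference -0.11, interval -0.26 to 0.04). On the other side, Kif26a was at 6.72 and 6.52 in KO and at 6.62 and 6.43 in WT arrays, a difference of 0.10 with overlap. Kif26b (5.80 and 5.87 in KO, 5.72 and 5.76 in WT) and Kif5a (5.67 and 5.69 in KO, 5.57 and 5.61 in WT) each differed by 0.09 without overlap, with intervals of -0.05 to 0.23 and -0.04 to 0.21, and both were dim.

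For the brightest members, the log2 difference was -0.05 for Kif9 (95% confidence interval -0.17 to 0.08), -0.03 for Kif2b (-0.15 to 0.10), 0.0080 for Kif2a (-0.14 to 0.15) and -0.01 for Kif2c (-0.13 to 0.11). For Kif17, Kif27, Kif3b and Kif3a it was -0.08, -0.10, 0.02 and -0.03, and for Kif11, Kif23, Kif15 and Kif18b it was -0.06, -0.07, 0.05 and -0.04. Kif7 differed by 0.07 (-0.10 to 0.24) with its brightest probe set and by 0.09 with each of the others. Over all 37 members the intervals reached from -0.51 to 0.35, and none of them took in a fold of 1.5 in either direction. A p that misses its threshold does not show that the levels were equal. Each interval bounds the array signal difference of 1 gene at 95% confidence, from 2 pools per genotype, without adjustment for the 37 genes. It is a bound on signal and not on RNA amount. The pools of a genotype differed by about as much as those of different genotypes. The root mean square difference over the 37 genes was 0.10 between the KO arrays, 0.13 between the WT arrays and 0.09 to 0.13 between arrays of different genotype.

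**Figure D3:**
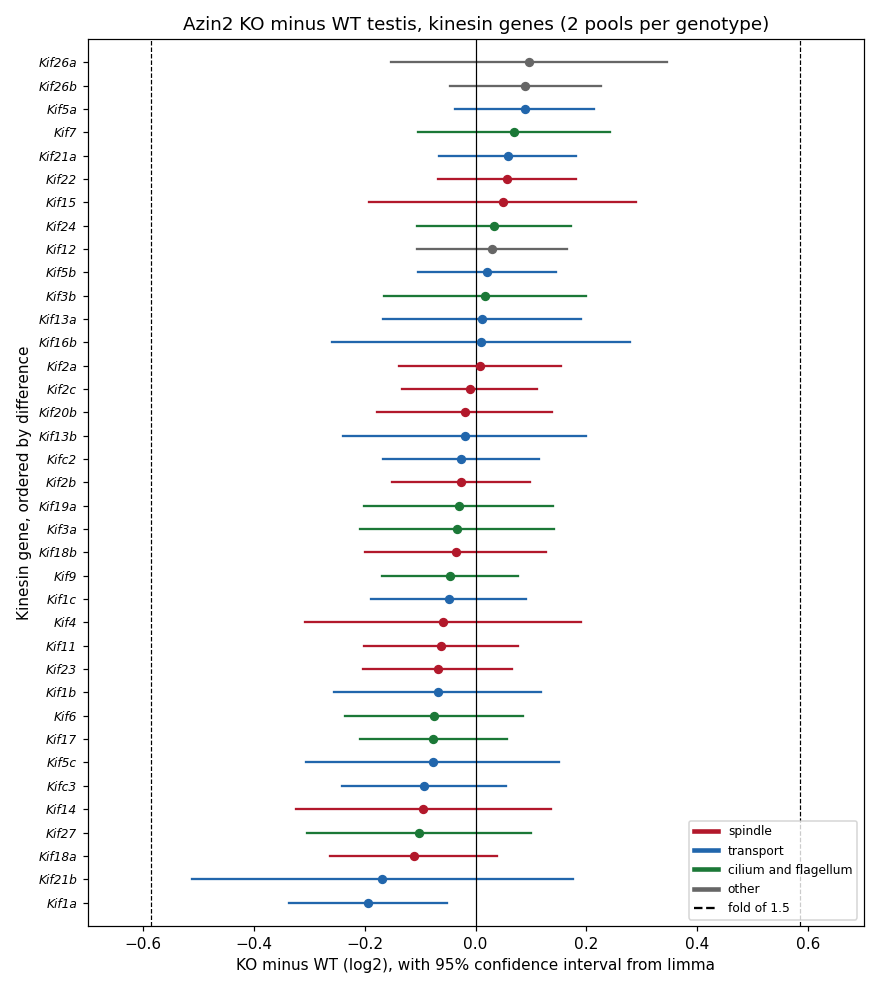
Log2 difference KO minus WT (horizontal axis) of the 37 kinesin genes in order of the difference (vertical axis); points are estimates from 2 pools per genotype, lines 95% confidence intervals from limma, colours the groups, and dashed lines a fold of 1.5. The interval of Kif1a lies below 0, all others cross 0, and all lie inside the dashed lines.

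By group, the median log2 difference was -0.03 for spindle kinesins (range -0.11 to 0.06), -0.03 for transport kinesins (-0.19 to 0.09), -0.03 for kinesins of cilia and flagella (-0.10 to 0.07) and 0.09 for the 3 others (0.03 to 0.10). The median was -0.03 over the 37 members and 0.01 over all named probe sets. Leaving out KO replicate 1 brought that of the members to 0.00027 and that of transport kinesins to 0.018. Differences were below 0 for 9 of 12 spindle, 8 of 13 transport and 6 of 9 ciliary members and for none of the 3 others, beside 43.1% of all named probe sets. In 14 members (37.8%) the KO and WT arrays did not overlap, beside 32.5% of all named probe sets. Of these, 9 were lower in KO (24.3%, beside 12.3% of all) and 5 higher (13.5%, beside 20.1%). Such a count rests on the arrays at hand, since an exact permutation test of 2 against 2 arrays cannot go below a two-sided p of 0.333. With each array centred on its median over named probe sets, 9 members (24.3%) did not overlap, beside 34.0% of all. Of these, 3 were lower (8.11%, beside 8.21% of all) and 6 higher (16.2%, beside 25.8%). The larger share of lower members was thus not seen with centred arrays, though 59.5% of members still lay below 0 (34.5% of all). It was seen with quantile normalization (29.7% lower without overlap, beside 14.3%) and with means of probe sets (29.7%, beside 12.2%). Among probe sets above the median level it was 32.1%, beside 12.4%. Without KO replicate 1, 32.4% of members were lower without overlap, beside 28.4% of all. In that setting 48.6% of members lay below 0, beside 44.6% of all. With any other array left out, the lower share was 37.8% to 54.1%, beside 27.4% to 29.3% of all.

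In the values as deposited, the lower members without overlap were Kif9, Kif2b, Kif2c, Kif17, Kif23, Kif11, Kifc3, Kif18a and Kif1a. The higher ones were Kif5b, Kif22, Kif21a, Kif26b and Kif5a. Of the 5 members on chromosome 4, which also holds Azin2, Kif2c and Kif17 are the nearest to Azin2 on either side. Their differences were -0.01 and -0.08, and those of Kif1b, Kif12 and Kif24 were -0.07, 0.03 and 0.03. Germ cell markers lay as close to 0. The median difference was -0.02 for 5 markers of dividing cells and 0.03 for 8 of spermatogonia. For 9 of spermatocytes it was 0.05, and for 12 of spermatids -0.01. None had an unadjusted p under 0.05 from limma, beside 4.10% of all named probe sets, and lists this short are not set apart by it. Among somatic markers the median was 0.10 for 7 of Sertoli cells, all above 0, -0.08 for 5 of Leydig cells, all below 0, and -0.20 for 4 of macrophages, all below 0. None of these had an unadjusted p under 0.05 from limma either, beside the same 4.10% of all. The part of any cell type in the kinesin values was not tested.

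Genes that work with kinesins were read from a separate list of 55 light chains, cargo adaptors, spindle partners and intraflagellar transport proteins, of which 52 had a value. Of these, 0 passed an adjusted p of 0.05 and 1 had an unadjusted p under 0.05 from limma, higher in KO, beside 2.14% of all named probe sets higher at that p. This was Ift27, a small GTPase of the intraflagellar transport particle, at 8.58 and 8.63 in KO and 8.49 and 8.43 in WT arrays (log2 difference 0.14, standard error 0.05, unadjusted p = 0.0434 from limma). The KO arrays lay above the WT arrays, but the p did not stay under 0.05 with an intensity trend, over every probe set, with the replicate number as a block or without any 1 of the arrays. The lowest difference was that of the light chain gene Klc4, at 7.24 and 7.08 in KO and 7.36 and 7.22 in WT arrays, with overlap (log2 difference -0.13). The Kif17 partner Fhl5 differed by -0.05, and Crem, whose product ACT coactivates, by 0.03. The Kif3 partner Kifap3 differed by -0.02 and the Kif23 partner Racgap1 by 0.07.

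Dynein is another microtubule motor, which moves towards the minus end, as Kifc1 does. Of 35 genes of cytoplasmic dynein, dynactin and their adaptors, 25 had a value. Of these, 0 had an unadjusted p under 0.05 from limma, beside 4.10% of all named probe sets. The log2 differences ranged from -0.14 for the adaptor Bicd2 to 0.12 for the dynactin subunit gene Dctn3. Bicd2 was at 7.91 and 7.95 in KO and at 7.96 and 8.19 in WT arrays. Dctn3 was at 9.13 and 9.16 in KO and at 9.05 and 8.997 in WT arrays (unadjusted p = 0.0594 from limma). The groups of both genes did not overlap, as in 5 of the 25, beside 32.5% of all named probe sets. The median difference of the 25 genes was 0.0094, and that of the kinesin partners -0.0057.

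**Figure D4:**
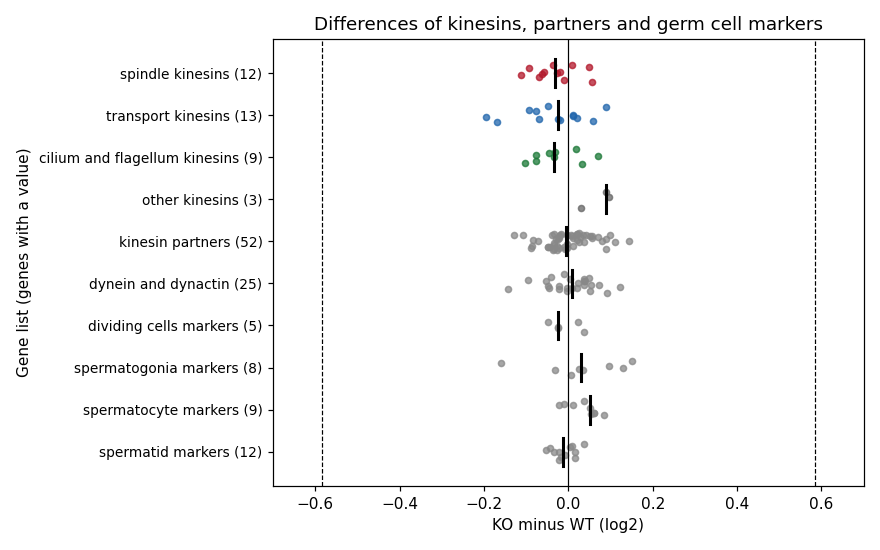
Log2 difference KO minus WT (horizontal axis) of the kinesin groups, their partners, dynein and dynactin, and germ cell markers (vertical axis, with the number of genes); each point is 1 gene, scattered vertically for legibility, black bars are medians, and dashed lines mark a fold of 1.5. Every gene shown lies between -0.19 and 0.15, inside the dashed lines.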

How the data were processed

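Testis RNA was hybridised to 4 arrays (Affymetrix Mouse Gene 1.1 ST), 2 of KO and 2 of WT, each with a pool of 3 testes. The deposited values are normalized log2 signals per probe set. The submitters' processing notes name RMA, which corrects background, normalizes between arrays and summarizes probes, and Partek 6.13.1224, and the study's methods name the instrument and analysis software of the array maker. The labels name a 3' labelling kit, whereas the methods describe fragmented cDNA for this array, and which was used was not settled. The genome build is not given in the sources used here. The number of arrays limits the precision.

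Of 35556 probe sets, 23099 had a name in the platform's annotation, with symbols updated through gene identifiers, and 1881 of these carry several symbols and give no gene a value. The probe set with the highest mean stood for a gene. Genotypes were compared in R 4.3.3 with limma 3.58.1 (lmFit and eBayes, prior of 2.96 degrees of freedom) over all named probe sets, with Benjamini-Hochberg adjustment, and the fit was tested on simulated data. Strand was read from the 25 probe sets numbered on each side. Motifs were searched in RefSeq windows of GRCm38.p6. Figures were drawn with matplotlib 3.10.9.

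The members, gene groups and lists were chosen with earlier results of these data known. Every member was named. Full values were given for the 5 brightest and 3 dimmest, for those with an unadjusted p under 0.05 and for the 3 largest differences in each direction, and of the other lists for those under that p and the largest difference in each direction. Alternatives were an intensity trend, robust eBayes, the ordinary test, quantile normalization, centring, a replicate block, a restriction to probe sets above the median, the use of every probe set, means of probe sets, KO arrays in place of WT for levels, and each array left out. The choice of probe sets on the gene's own strand was added after the data were seen.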

Additional observations from a re-analysis of the deposited data

How the results depend on the processing

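Under every alternative run, 0 kinesin genes passed an adjusted p of 0.05 and 0 had both a fold of 1.5 and an unadjusted p under 0.05 in limma. The lowest adjusted p of a member was 0.920, without WT replicate 1. The count of members with an unadjusted p under 0.05 was 1 in limma with the replicate number as a block, as without it, and 2 by the ordinary test, Kif5a and Kif21a. It ranged from 0 to 3 with an array left out, at 0 without KO replicate 1 or WT replicate 2, 2 without KO replicate 2 (Kif1a and Kif14) and 3 without WT replicate 1 (Kif1a, Kif21b and Kif27). A genotype with 1 array was then assumed to vary like the other. These counts, and those of partner and dynein genes below, are given without the share of all named probe sets in each setting. They therefore do not set these genes apart from others. The replicate numbers are shared by the genotypes, but 2 pairs do not settle a pairing, and the correlation of the deviations of KO replicate 1 and WT replicate 1 was -0.08. The block left 0 partner genes and 0 dynein genes with an unadjusted p under 0.05 in limma.

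Members without overlap numbered 9 with centred arrays (24.3%, beside 34.0% of all named probe sets) and 22 to 31 with an array left out (59.5% to 83.8%, beside 64.2% to 68.8% of all), where fewer arrays separate more easily by construction. Members without overlap numbered 15 with quantile normalization (40.5%, beside 31.4% of all) and 17 with means of probe sets (45.9%, beside 32.4%). Above the median level they numbered 12 of 28 (42.9%, beside 28.9%). The median difference of transport kinesins was -0.062 when KO replicate 2 was left out and 0.018 when KO replicate 1 was, the ends of its range with an array left out. It was also above 0 without WT replicate 2, at 0.0043. The median of all members was -0.041 without KO replicate 2 or WT replicate 1, 0.00027 when KO replicate 1 was left out and -0.0060 when WT replicate 2 was. That of spindle kinesins lay between -0.051 (WT replicate 1 left out) and -0.0073 (KO replicate 1 left out), and that of the ciliary group between -0.059 and -0.0051 (WT replicate 1 and WT replicate 2 left out). The spindle group was 1.79 brighter than the transport group in KO arrays, 1.49 with means of probe sets and 0.63 above the median level, which removes dim genes by construction, and 1.83 to 1.87 with a WT array left out. For the ciliary group this was 2.28 with means of probe sets, 1.17 above the median level, 2.28 with probe sets on the gene's own strand and 2.45 to 2.54 with a WT array left out. Partner genes with an unadjusted p under 0.05 in limma numbered 0 with an intensity trend, with robust eBayes, over every probe set and with any array left out (0 to 0), and 4 by the ordinary test. Dynein genes numbered 2 by the ordinary test, 1 with centred arrays, and 0 to 1 with an array left out, with Bicd2 called without WT replicate 1. Of 472 values of single members under these alternatives, 25 differed in sign from the value reported, in 19 genes, and none of the 472 passed an adjusted p of 0.05. Other causes were not tested.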
